A study of Mus musculus with 4 samples.

Results

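The IL-6 family is a group of secreted cytokines and the receptors that bind them, taken here as 6 ligand genes (Il6, Il11, Lif, Clcf1, Ctf1 and Osm) and 4 receptor genes (Il6st, Il11ra1, Lifr and Osmr). Every non-control probe that the array files annotate with 1 of these 10 symbols was used, without regard to its signal. Of the 10 genes 9 had a probe, 16 probes in all out of 41174 on the array, and Lif was not analysed here. Wild type primary embryonic fibroblasts of C57BL/6 mice had received an siRNA against Xpo5 (2 samples) or a negative control siRNA (2 samples), at 60 nM in both groups. Xpo5 encodes Exportin-5, which carries microRNA precursors out of the nucleus. All cells were starved in 0.2% serum for 48 h, starting 12 h after transfection, and were then refed with 20% serum and transfected again 24 h before harvest. Both groups are thus serum-refed cells that had received siRNA on 2 occasions. The samples came from 2 independent experiments, and each was hybridised to its own 1-colour array. The comparison asks how a lower level of Exportin-5 alters the transcripts of such fibroblasts.

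Cytokines of this family act through a shared signalling chain, gp130, which Il6st encodes. IL-6 and IL-11 first bind a receptor of their own (Il6ra, Il11ra1) and then pair 2 copies of gp130. The signalling pair of LIF, cardiotrophin 1 (Ctf1) and cardiotrophin-like cytokine (Clcf1) is gp130 with the LIF receptor. Mouse oncostatin M joins gp130 mainly to the oncostatin M receptor. The paired chains switch on JAK kinases, which activate the transcription factor STAT3, and STAT3 induces the inhibitor Socs3. Fibroblasts are a known source of IL-6 and IL-11 and respond to IL-11 and oncostatin M.

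The knockdown held on both arrays. The brightest Xpo5 probe read -1.95 and -1.93 with Xpo5 siRNA and 1.31 and 1.26 with control siRNA, as the log2 of the signal over the array's own 75th percentile, the scale of every level below. That left 10.7% of the control signal. Other kept Xpo5 probes left 11.8% and 39.5%, and a further dim one was not kept. All 10 fibroblast markers, Col1a1, Vim and Pdgfra among them, were measured well above background. The scanner software marked 62.4% to 65.0% of spots in this way. With 4 arrays in all, their number sets how precise the values are. All 17 macrophage markers were also measured, and all were higher with Xpo5 siRNA, by a median of 0.66 on the log2 scale. Of the endothelial markers 4 of 7 were kept, without Pecam1, Cdh5 and Cldn5. Kdr among them differed by 1.19 ± 0.18, Tek by 0.63 ± 0.15, Esam by 0.18 ± 0.14 and Emcn by -0.34 ± 0.16. Of the epithelial markers 3 of 7 were kept, Krt8, Krt18 and Krt19, with differences from -0.62 to 0.33 and without Epcam and Cdh1. Of the lymphocyte markers 2 of 8 were kept, and neither was higher.

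No member passed the test across all probes. In limma, with the Benjamini-Hochberg adjustment over 25641 probes, 0 of the 14 member probes that passed the filter had an adjusted p under 0.05, where the share over all probes was 0%. At an unadjusted p under 0.05 there was 1 member probe, that of Il11, against 10.9% of all probes. The knockdown itself, at a log2 difference of -3.23 ± 0.14, did not pass either (limma adjusted p = 0.0654). Every error after a ± sign is the SE of the limma fit, with n = 2 arrays in each group. The smallest exact permutation p for 2 arrays against 2 is 0.333, and no value was tested in that manner.

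Il11 was the member with the largest difference. Its level was 1.41 and 1.27 in the Xpo5 siRNA samples and 0.68 and 0.30 in the control siRNA samples. Both Xpo5 siRNA samples lay above both controls, and the gap between the groups was larger than the gap between the replicates of either. IL-11 is a cytokine of stromal cells that acts in bone, placenta and tissue fibrosis. The difference was 0.85 ± 0.19 (limma adjusted p = 0.324), a 1.80-fold higher signal with a 95% interval of 1.28 to 2.54 that is not adjusted for the number of probes. It was 0.73 in replicate 1 and 0.96 in replicate 2. Each slide carried 1 array of each group, and within the slides the difference was 1.1 and 0.59 (limma adjusted p = 0.943 in a fit blocked by slide). When each gene was represented by its brightest probe and the replicate number was added as a block, Il11 passed (limma adjusted p = 0.0456) and no other member did. In that fit 4.36% of all genes passed, 2.98% higher with Xpo5 siRNA. With 1 probe per gene and no block 0 of the 8 measured members passed, where 0.0215% of genes did. With the block over all probes, where 0.0156% passed, 0 of the 14 member probes did and the adjusted p of Il11 was 0.102 in limma. The probe lies on chromosome 7 of mm9, at 4724847 to 4724906 on the minus strand.

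Il6, the ligand that names the family and a mediator of fever and the acute phase response, was lower with Xpo5 siRNA, by an amount whose interval includes 0. Its level was 0.01 and -0.37 in the Xpo5 siRNA samples and 0.15 and 0.05 in the control siRNA samples. Both Xpo5 siRNA samples were below both controls, but replicate 1 of Xpo5 siRNA was only 0.04 below replicate 2 of control siRNA. The difference was -0.28 ± 0.19 (limma adjusted p = 0.635), and its 95% interval runs from -0.77 to 0.21. Without replicate 2 of Xpo5 siRNA it was -0.09. The change of Il11 exceeded that of Il6 by 0.87 in replicate 1 and by 1.38 in replicate 2 on the log2 scale, a contrast chosen after the values were seen and not tested.

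The Il6 probe (chromosome 5, 30346362 to 30346421, mm9) is printed 10 times on each array, which gives a direct view of the spot error. The 10 spots ranged from 498 through a median of 525 to 600 units of processed signal on replicate 1 of Xpo5 siRNA, and from 338 through 409 to 440 on replicate 2. They ranged from 523 through 584 to 691 on replicate 1 of control siRNA, and from 565 through 593 to 682 on replicate 2. The SD between spots was 0.08 and 0.12 on the log2 scale for the Xpo5 siRNA arrays and 0.12 and 0.09 for the control siRNA arrays. The sample means lay 0.38 apart in the Xpo5 siRNA group and 0.10 apart in the control siRNA group. The other member probes have 1 spot per array.

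**Figure D1:**
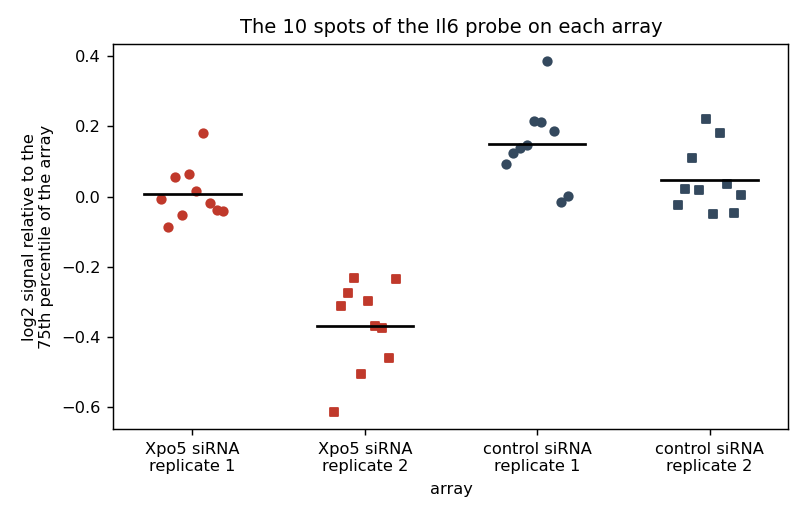
Each point is 1 of the 10 spots of the Il6 probe on an array, on the vertical axis as the log2 of the signal over that array's 75th percentile, and the line is the mean. The spots of replicate 2 of Xpo5 siRNA have a mean of -0.37, below the means of the other 3 arrays, 0.01 for replicate 1 of Xpo5 siRNA and 0.15 and 0.05 for control siRNA.

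The promoters of these 2 ligand genes are shown because their fitted differences had opposite signs and both are known targets of inflammatory and growth signals. Each is the 250 bases before the start of transcription from RefSeq (GRCm38.p6), read 5′ to 3′ on the strand of the gene. They lie at chr7:4778142-4778391 on the minus strand for the Il11 start that has a motif match, which is 1 of 2 listed starts, and at chr5:30012864-30013113 on the plus strand for Il6. Capitals mark matches to 4 motifs searched on both strands: AP-1 as TGANTCA, NF-kB as GGGA and TTCC with any 2 bases between them, C/EBP as TTGCNNAA and STAT as TTCNNNGAA.
Il11: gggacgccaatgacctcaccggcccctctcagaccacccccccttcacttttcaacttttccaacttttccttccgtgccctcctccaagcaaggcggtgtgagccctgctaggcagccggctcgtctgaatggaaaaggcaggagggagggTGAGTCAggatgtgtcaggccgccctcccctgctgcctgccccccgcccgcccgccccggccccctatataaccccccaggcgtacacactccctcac
Il6: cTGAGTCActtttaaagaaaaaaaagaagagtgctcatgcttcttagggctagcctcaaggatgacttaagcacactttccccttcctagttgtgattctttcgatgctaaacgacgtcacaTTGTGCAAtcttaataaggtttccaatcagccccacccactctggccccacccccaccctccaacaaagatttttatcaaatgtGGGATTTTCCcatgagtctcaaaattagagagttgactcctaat

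Counting back from -1, the base before the start, the Il11 promoter holds 1 AP-1 match, at -98 to -92. The Il6 promoter holds an AP-1 match at -249 to -243, a C/EBP match at -128 to -121 and an NF-kB match at -44 to -35. None of the marked matches overlap. Over all 32851 promoters of that length, 6.75% hold the AP-1 letters, 9.56% those of C/EBP, 1.21% those of NF-kB and 7.02% those of STAT. Of the 10 family genes 8 have promoters in the table, 11 in all. Beyond Il11 and Il6, the only match to the 4 motifs was 1 of AP-1 in the promoter of Lif. A match of letters is a description of the sequence and not of binding.

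The 2 further measured ligands, Ctf1 and Clcf1, both signal through gp130 and the LIF receptor. Ctf1, first known for heart muscle growth, read -0.17 and -0.41 with Xpo5 siRNA and -0.72 and -0.67 with control siRNA. The groups did not overlap. The difference was 0.41 ± 0.16 (limma adjusted p = 0.468), with a 95% interval from -0.01 to 0.82, and it was 0.55 in replicate 1 and 0.26 in replicate 2.

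Clcf1, a neurotrophic and B cell-stimulating cytokine, read -1.09 and -0.94 with Xpo5 siRNA and -1.87 and -1.03 with control siRNA. Replicate 2 of control siRNA lay between the 2 Xpo5 siRNA samples, and replicate 1 stood apart from it by 0.84. The difference of 0.44 ± 0.31 (limma adjusted p = 0.654) came to 0.02 without replicate 1 of control siRNA. The Ctf1 probe lies on chromosome 7 at 134861581 to 134861640 and the Clcf1 probe on chromosome 19 at 4222480 to 4222539, both in mm9.

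Osm, a cytokine made mainly by macrophages and other white blood cells, was not well above background in the fibroblasts. Its brighter probe read -5.95 and -5.66 with Xpo5 siRNA and -5.33 and -5.85 with control siRNA, and passed the scanner's threshold on 1 array, replicate 1 of control siRNA. The other probe passed on 0 of the 4 arrays. Neither probe entered the test, and no fold is given. They lie on chromosome 11 of mm9, at 4140146 to 4140205 and at 4139500 to 4139559.

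**Figure D2:**
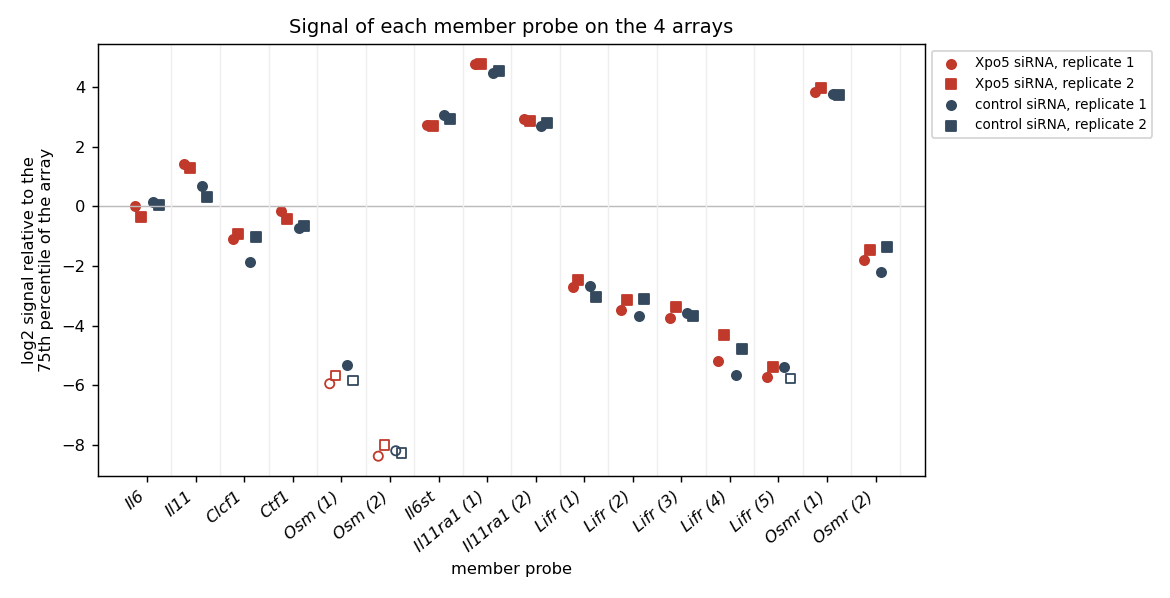
The vertical axis gives the level of each member probe, as the log2 of the signal over the array's 75th percentile, with Xpo5 siRNA in red and control siRNA in dark blue; open symbols were not well above background. Levels of different probes cannot be set against each other. Il11 stands higher on both Xpo5 siRNA arrays (1.41 and 1.27, against 0.68 and 0.30), while Il6st stands lower (2.71 and 2.68, against 3.07 and 2.93).

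Among the receptors no interval left out 0. Il6st, the gp130 gene, read 2.71 and 2.68 with Xpo5 siRNA and 3.07 and 2.93 with control siRNA. Both Xpo5 siRNA samples were below both controls. The difference was -0.31 ± 0.14 (limma adjusted p = 0.526), 0.81 times the control signal with an interval of 0.62 to 1.05, and it was -0.36 in replicate 1 and -0.26 in replicate 2. The probe lies on chromosome 13 at 113296586 to 113296645 of mm9.

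Il11ra1, the receptor that holds IL-11 for gp130, had 2 probes 16 bases apart on chromosome 4 (41716152 to 41716211 and 41716228 to 41716287 in mm9), which therefore share their target. The brighter probe read 4.77 and 4.78 with Xpo5 siRNA and 4.48 and 4.54 with control siRNA. The groups did not overlap for either probe, with differences of 0.26 ± 0.14 and 0.16 ± 0.14 (limma adjusted p = 0.560 and 0.720). The files assign both probes to the transcripts of 3 genes, Il11ra1 and the copies Gm13305 and Gm2002, so the signal cannot be given to 1 of them.

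Osmr, the signalling partner of gp130 for oncostatin M, read 3.84 and 3.96 with Xpo5 siRNA and 3.75 and 3.72 with control siRNA on its brighter probe. The difference of 0.16 ± 0.14 (limma adjusted p = 0.715) has a 95% interval from -0.21 to 0.53. The second probe gave 0.16 ± 0.32 with overlapping groups, and turned to -0.25 without replicate 1 of control siRNA. The probes lie on the minus strand of chromosome 15 of mm9, at 6763686 to 6763745 and at 6765043 to 6765102.

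Lifr, the receptor chain that LIF, cardiotrophin 1 and Clcf1 share, had 5 probes, and the groups overlapped on all 5. The brightest, which spans 807 bases of chromosome 15 (7134761 to 7135567 in mm9) where the other member probes span 60, read -2.71 and -2.47 with Xpo5 siRNA and -2.68 and -3.06 with control siRNA. Its difference was 0.28 ± 0.20 (limma adjusted p = 0.656). The other 4 probes gave differences between 0.01 and 0.47, of which the one starting at 7145390 was kept only through the Xpo5 siRNA group, and 1 of the 5 had the same sign in both replicates.

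**Figure D3:**
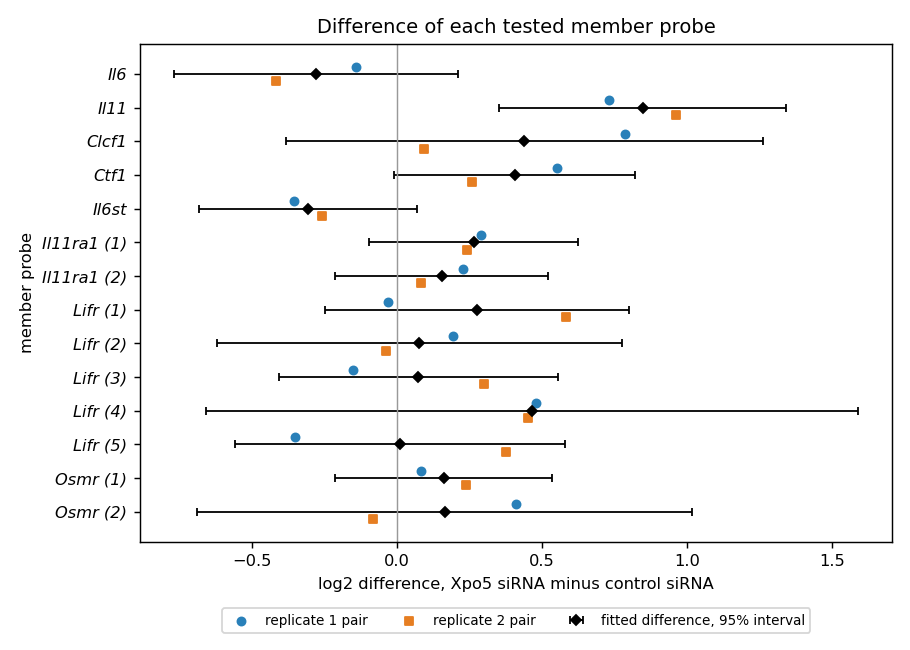
The horizontal axis gives the log2 difference, Xpo5 siRNA minus control siRNA, of each of the 14 tested member probes; diamonds and bars are the fitted value with its 95% interval (unadjusted), circles the replicate 1 pair and squares the replicate 2 pair. The Il11 interval, 0.35 to 1.34, is the only 1 of the 14 that leaves out 0.

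Across the family the 14 tested probes had a median difference of 0.16, against 0.01 over all kept probes. By the brightest probe of each gene, 6 of 8 members were higher and 2 lower with Xpo5 siRNA, where 51.2% of all genes were higher. The groups did not overlap for 6 of these 8, 4 higher and 2 lower, where this was so for 47.6% of all genes, 24.7% higher and 22.9% lower. Of the 14 probes 7 did not overlap, where this was so for 43.2% of all probes. The 4 ligands ranged from -0.28 to 0.85 and the 4 receptors from -0.31 to 0.28.

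The other genes of the family were mostly higher as well. Of 11 further ligands and receptors 9 were kept, 8 of them higher and 1 lower, where 51.2% of all genes were higher. Their median was 0.30 on the log2 scale, against 0.01 over all 13923 genes. Ctf2, 1 of the 8, was kept only through the Xpo5 siRNA group, which favours a higher value, and of the 8 genes measured on all arrays 7 were higher. None passed in limma over all probes, and 4 had an unadjusted p under 0.05, all higher, where 11.9% of genes did and 7.34% were higher. Cntf, a survival factor for neurons that signals through gp130 and the LIF receptor, read 1.20 and 1.33 with Xpo5 siRNA and 0.28 and 0.56 with control siRNA, a difference of 0.85 ± 0.17 (limma adjusted p = 0.319). With 1 probe per gene and the replicate block it passed, at an adjusted p of 0.0454 in limma, where 4.36% of all genes passed. The files also assign this probe to a readthrough transcript, listed in RefSeq as Gm44505, that joins Cntf to its neighbour Zfp91, and the array cannot tell them apart.

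Il31ra, a receptor chain that pairs with Osmr to bind IL-31, differed by 0.83 ± 0.26. Its probe was dim, at -3.78 and -4.11 with Xpo5 siRNA and -5.08 and -4.47 with control siRNA. The difference was 1.30 in replicate 1 and 0.36 in replicate 2. Ebi3, a subunit of the cytokines IL-27 and IL-35, differed by 0.81 ± 0.29. The limma adjusted p values of Il31ra and Ebi3 were 0.398 and 0.446. Il6ra, which holds IL-6 for gp130, read -4.18 and -3.56 with Xpo5 siRNA and -4.18 and -3.51 with control siRNA. On this probe the replicates differed and the groups did not, and another Il6ra probe gave -0.18 ± 0.43 with overlapping groups.

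Downstream of the receptors, the differences went both ways. In the list of JAK, STAT and adaptor genes 9 of 14 were higher and 5 lower, with a median of 0.09. In limma over all probes 0 passed, and 1 had an unadjusted p under 0.05, where 11.9% of all genes did. Jak2, a kinase bound to gp130, differed by 0.26 ± 0.14, Stat5a by 0.26 ± 0.16 and the adaptor Grb2 by 0.23 ± 0.14. Other probes of Jak2 and Grb2 gave 0.29 and 0.10. Stat3, the main transcription factor of the pathway, read 4.07 and 3.82 with Xpo5 siRNA and 4.39 and 4.04 with control siRNA, and the groups overlapped (difference -0.27 ± 0.20, limma adjusted p = 0.663).

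Of the 10 negative regulators 4 were higher and 6 lower, with a median of -0.10. None passed in limma over all probes, and 2 had an unadjusted p under 0.05, where 11.9% of all genes did. Socs2, an inhibitor of growth hormone and cytokine signalling, read -0.35 and -0.66 with Xpo5 siRNA and 0.58 and 0.21 with control siRNA. Both Xpo5 siRNA samples were below both controls, and the difference was -0.90 ± 0.21 (limma adjusted p = 0.331, and 0.0439 with 1 probe per gene and the replicate block). In that blocked fit 4.36% of all genes passed. Cish, a related inhibitor that STAT5 induces, was higher in both Xpo5 siRNA samples, at 0.45 ± 0.14. The phosphatase gene Ptpn2 differed by -0.43 ± 0.16, with a second probe at -0.64 ± 0.14 (limma adjusted p = 0.320). Pias3, which binds STAT3, differed by 0.33 ± 0.19, with a second probe at 0.68 ± 0.65 and overlapping groups. Socs3, the inhibitor that STAT3 induces, read 1.80 and 1.55 with Xpo5 siRNA and 1.95 and 1.83 with control siRNA (difference -0.22 ± 0.16, limma adjusted p = 0.667).

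Genes often induced through STAT3 split evenly, with 11 higher and 11 lower among the 22 of 26 that were kept and a median of -0.01. Over all probes 0 passed in limma, against 4 at an unadjusted p under 0.05, where 11.9% of all genes had one. Without Lbp and Serpina3n, which were kept only through the Xpo5 siRNA group, 9 were higher and 11 lower, with 3 at that p. Complement C3 read -2.15 and -2.48 with Xpo5 siRNA and -3.04 and -3.32 with control siRNA, a difference of 0.86 ± 0.20. With 1 probe per gene and the replicate block 2 of the 22 genes passed, where 4.36% of all genes did. That combination was chosen after seeing the data. The 2 genes were C3 (limma adjusted p = 0.0439) and Serpina3g at 0.66 (limma adjusted p = 0.0482). In limma over all probes without a block, their adjusted p values were 0.329 and 0.475. Lbp, an acute phase protein that binds bacterial lipopolysaccharide, passed the scanner's threshold on both Xpo5 siRNA arrays and on neither control array. Its difference was 1.11 ± 0.32 (limma adjusted p = 0.381). With control siRNA set no lower than the lowest signal well above background, the fold was 1.51. Lbp was kept only through the group where it was brighter, and with normexp without uneven spots its log2 difference was 0.20. Myc, a driver of cell growth, differed by -0.55 ± 0.16, with its other probes at -0.52 and -0.47, and the crosslinking enzyme gene Tgm2 by -0.47 ± 0.17, with others at -0.32 and -0.01.

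Upstream, the NF-kB and AP-1 genes and the cytokines that induce Il6 had a median of 0.02 over 15 of 17 genes. Of these 0 passed in limma over all probes, and 1 had an unadjusted p under 0.05, where 11.9% of all genes did. That gene was Tnf, a macrophage cytokine that induces Il6 in fibroblasts. It read -3.13 and -3.60 with Xpo5 siRNA and -3.96 and -4.36 with control siRNA. The difference was 0.79 ± 0.24 (limma adjusted p = 0.395, and 0.0456 with 1 probe per gene and the replicate block). In that blocked fit 4.36% of all genes passed. Il1a and Il1b were not kept. Fosl1, an AP-1 subunit, differed by -0.42 ± 0.16, Il1rn, which blocks IL-1, by -0.35 ± 0.30 and Nfkbia, the NF-kB inhibitor, by 0.12 ± 0.14. Another Il1rn probe gave -0.52 ± 0.41.

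Of 9 genes whose proteins bind Il6 or related mRNAs, 5 were higher and 4 lower. In limma 0 passed and 0 had an unadjusted p under 0.05, where 11.9% of all genes did. Zc3h12a, the nuclease Regnase-1 that cleaves Il6 mRNA, differed by 0.30 ± 0.14. Elavl1 stood at -0.19 ± 0.14, with its other probes at -0.44 and -0.14, and Zfp36l2 at -0.25 ± 0.20. Zfp36, which promotes decay of AU-rich mRNAs, stood at -0.20 ± 0.27, with another probe at -0.40.

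Markers of macrophages, cells that make Osm and Tnf among other cytokines, were higher in the same samples. Their summed signal over 16 genes with a value on every array was 89.3 and 75.8 times the 75th percentile with Xpo5 siRNA, and 63.3 and 45.0 times with control siRNA. Most of that sum was Lyz2, and without it the sum was 28.8 and 22.7 times with Xpo5 siRNA and 20.5 and 14.1 times with control siRNA. In bulk samples more cells of a type and more RNA per cell cannot be told apart. Adgre1, Csf1r and Ptprc were above background on all arrays. Of the 16, 11 did not overlap between the groups, all higher, where 24.7% of genes were higher in this way. With 1 probe per gene and the replicate block, a combination chosen after seeing the data, 5 of the 17 macrophage markers passed in limma. All 5 were higher, where 2.98% of all genes passed in that direction, and the endothelial Kdr passed as well. The part of these markers in the values of Tnf, C3, Ebi3 and the family members was not tested. Osm itself passed the scanner's threshold on 0 of the 2 Xpo5 siRNA arrays.

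**Figure D4:**
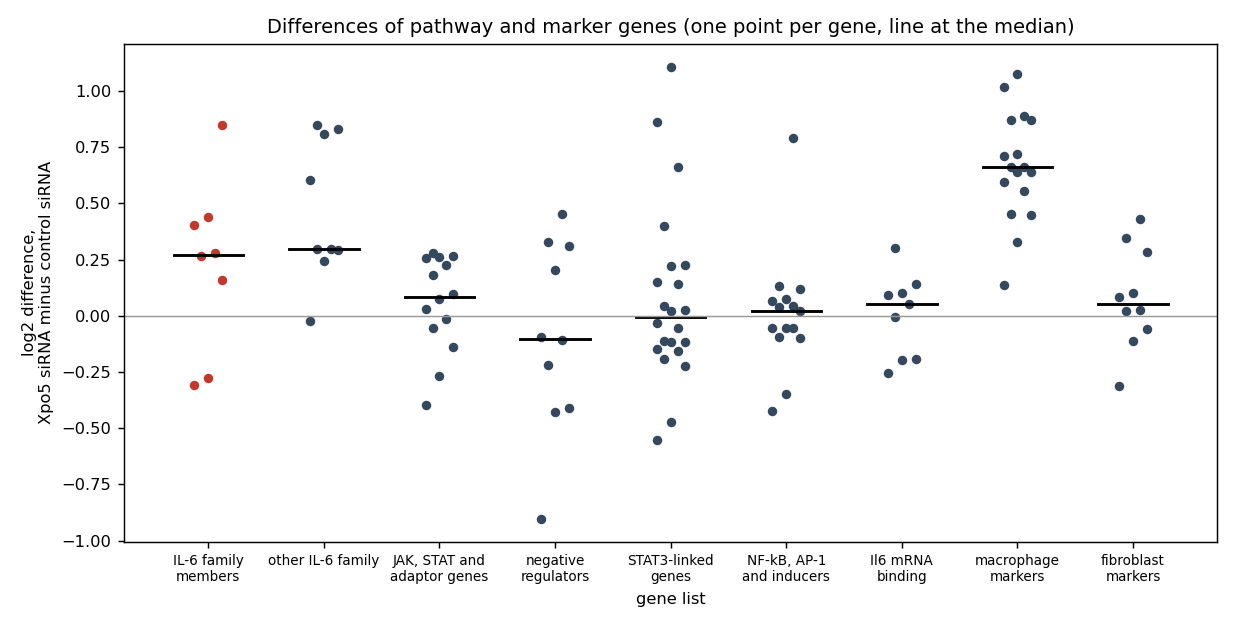
Each point is 1 gene by its brightest kept probe, on the vertical axis as the log2 difference, Xpo5 siRNA minus control siRNA, and the black line is the median of the list. The IL-6 family members (red) have a median of 0.27 and the other family genes 0.30, while the JAK, STAT, feedback and STAT3-linked lists lie near 0 and the macrophage markers at 0.66.

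The 3 genes whose pattern over the 4 arrays was most like that of Il11, by the root mean square distance between centred log2 signals, were Rgs4 (0.03), Cfap45 (0.03) and Fndc5 (0.04), out of 13909 genes compared. With 4 arrays such likeness is a description only. Rgs4, a regulator of G protein signalling, differed by 0.83 ± 0.19 between the groups, Cfap45 by 0.89 and Fndc5 by 0.80.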

How the data were processed

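Total RNA of the 4 samples was measured on Agilent arrays with 1 dye, Cy3, per the labels' protocols. Each deposited scanner file gives a processed intensity per spot, from which Feature Extraction 10.5.1.1 had subtracted background and a spatial trend, per the file headers. The series table deposited by the authors is on the log2 scale, and its values are the log2 processed signal after a shift that gave each array a median of 5.33 (99.7% to 99.8% of probes within 0.001). Outlier spots were left out, and spots of a probe were averaged as log2 minus the 75th percentile of the array. A probe was kept where both arrays of either group were well above background, which left 25641 of 41174. List genes were named through RefSeq (GRCm38.p6) by accession, symbol or synonym, with 8343 probes unmatched, and represented by their brightest kept probe. Probe positions come from the files (mm9, whose exon annotation was not used here).

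Groups were compared with limma 3.58.1 (R 4.3.3; lmFit, eBayes, no block, two-sided, Benjamini-Hochberg at 0.05), a procedure tested on simulated data. Where a group was not above background, a fold is also given with that group set no lower than the lowest signal well above background. That fold takes no account of the spread between arrays. The members and lists were chosen with earlier results of these data known. Named were every member probe, up to 4 genes of each list by the smallest p, and Stat3, Socs3, Il6ra and Xpo5, except that 2 list genes are not reported here. Replicate 1 and replicate 2 were taken to be the 2 independent experiments named in the series text, which the labels do not spell out. Arrays with the same number deviated together from their group means (r = 0.515 across probes, which are not independent). Nothing says whether the experiments used different embryos, so p-values measure only the spread between these samples. Alternatives tried were normexp with an offset of 50 (all spots, or without those of uneven background), quantile and median scaling, other filters on dim probes, 1 probe per gene, slide or replicate blocks, each array left out and the deposited table.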

Additional observations from a re-analysis of the deposited data

How the results depend on the processing

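Every value rests on 2 arrays per group. The call of Il11, with 1 member probe called in place of 0, came from 1 probe per gene together with the replicate block, a combination chosen after seeing the data. Under that setting 415 probes were higher and 192 lower over the array, against 0 and 0 in the fit without a block, where 2787 had an unadjusted p under 0.05. The counts were 2 higher and 8 lower with median scaling and with the deposited table, 2 and 1 with 1 probe per gene, 1 and 3 with the replicate block over all probes and 0 and 1 with normexp without uneven spots. They were 0 and 0 without any single array, a fit that takes a single remaining array to be as variable as the rest. Median scaling moved the median of all probes by -0.11, the deposited table by -0.11 and normexp on all spots by 0.39.

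The Il11 difference was 0.19 with normexp on all spots and 0.66 to 1.03 under every other alternative, and its limma adjusted p ranged between 0.0456 and 1.00. The signs of Il6, Il11, Clcf1, Ctf1, Il6st and the brightest Lifr probe held under all 15 alternatives. Some sizes did not hold with normexp on all spots, where Il6st read -1.43 and the brightest Lifr probe 1.35. With normexp on all spots Il11ra1 read -1.07 and -1.05, Osmr -0.95, Il6ra 1.47, Grb2 -1.18, Jak2 -0.11, Cish -0.21, Nfkbia -1.07 and Zfp36l2 1.20. Without the uneven spots Il11 read 0.74, Il6st -0.32, the brightest Lifr probe 0.28, Il11ra1 0.22 and 0.09, Osmr 0.34 and Il6ra 0.11. The Lifr probes starting at 7141059, 7141150 and 7145390 read -0.0163, -0.025 and -0.0691 with quantile normalization, -0.0274, -0.031 and -0.0942 with median scaling and -0.0279, -0.0315 and -0.0947 with the deposited table. Leaving out 1 array at a time gave -0.22 to 0.37, -0.11 to 0.26 and -0.18 to 0.21 for them, -0.25 to 0.58 for the second Osmr probe, -0.36 to 0.31 for Il6ra and -0.49 to 0.10 for Zfp36. In the main fit those 3 Lifr probes differed by 0.08, 0.07 and 0.01, less in size than the common shift of -0.11 from median scaling. The cause of the other reversals was not tested.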
